A study of Homo sapiens with 5 samples.

Results

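The genes described here make up the odour signalling machinery of olfactory sensory neurons, the sensory cells of the nose. They are RTP1, GNAL, GNG8, GNG13, ADCY3, CNGA2, CNGA4, ANO2, STOML3 and OMP. They were chosen by symbol, each symbol matched 1 row, and they are 10 of the 33538 genes in the feature table of D22, D24 and D26. Their levels were taken in 8 libraries of a GnRH neuron differentiation, and in single cells of the 3 late libraries they were compared between cells that hold TBR1 and PPP1R17 transcripts and all other cells. The question was how far the TBR1/PPP1R17 cells carry the signalling genes of olfactory neurons.

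In the nose, an odorant binds a receptor on the cilia of the neuron, and RTP1 is one of the chaperones that bring such receptors to the cell surface. The receptor activates a G protein whose alpha subunit is the product of GNAL, this activates the adenylate cyclase ADCY3, and the cyclic AMP opens a channel built from CNGA2, CNGA4 and CNGB1. Calcium that enters through the channel opens the chloride channel ANO2. GNG13 and GNG8 are gamma subunits of G proteins, the former known from mature olfactory neurons and the latter from immature olfactory and vomeronasal neurons. STOML3 is a membrane protein of olfactory cilia and of touch neurons, and OMP is the classical marker of mature olfactory neurons.

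All cells came from wild type WA09, an established human embryonic stem cell line, and were profiled with 10x Genomics droplets. D0 held undifferentiated cells, and the D5_dSMADi and D10_dSMADi cells received dual SMAD inhibition (dSMADi), that is 2 µM dorsomorphin and 10 µM SB431542, from day 0. The D5_XAV939 and D10_XAV939 cells received 10 µM XAV939, an inhibitor of Wnt signalling, in addition. D22, D24 and D26 followed dSMADi to day 10 without XAV939, then FGF8 from day 11 to 20 and the Notch inhibitor DAPT at 20 µM from day 21. Each condition was 1 library with no replicate, so no difference was tested. All intervals are at 95% and cover counting error only.

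Between 1009 and 11056 cells were kept per library, with 58073098 to 130440502 UMIs (unique molecular identifiers, each a counted transcript). The median cell held 69455 UMIs at D0, 24290.5 to 31112.5 at D5 and D10, and 7180 to 12179 at D22 to D26. The 5 early libraries shared a droplet run and were told apart by an oligonucleotide tag. In each of them the tag of its own condition was the highest in every barcode. No barcode was shared between tagged libraries, and other pairs of libraries shared 1 to 37. For the tagged libraries both results follow from a split of the run by tag. They show which file holds which condition, and not that each barcode was assigned correctly. The early files list 36601 genes and were made with another version of the counting software than the late files. By the study's methods, early cells were also dissociated with Accutase and late cells with papain, and only early cells were tagged. Differences between early and late levels cannot be told apart from these differences. POU5F1, a pluripotency factor, stood at 1244 CPM (UMIs of a gene scaled to the total UMIs of the cells) at D0. STMN2, a marker of neurons, stood at 1294, 9045 and 8093 CPM at D22, D24 and D26.

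The promoters of 9 of the 10 genes, 15 in all, were found in the RefSeq table of GRCh38.p14, each as 250 bases before and 50 after the start site. Those of GNG8, RTP1 and STOML3 are shown because the levels of these genes spanned the widest ranges described below. The GNG8 promoter lies at chr19:46636153-46636452 on the minus strand, that of RTP1 at chr3:187197236-187197535 on the plus strand and that of STOML3 at chr13:38990782-38991081 on the minus strand. The GNG8 window lies inside the GENCODE span of the gene given below, so its RefSeq start is not the outermost GENCODE start. Capitals mark CCCNNGGG, the core of the site read by EBF factors, which act in olfactory neurons, and bases in lower case hold no match.
GNG8 promoter: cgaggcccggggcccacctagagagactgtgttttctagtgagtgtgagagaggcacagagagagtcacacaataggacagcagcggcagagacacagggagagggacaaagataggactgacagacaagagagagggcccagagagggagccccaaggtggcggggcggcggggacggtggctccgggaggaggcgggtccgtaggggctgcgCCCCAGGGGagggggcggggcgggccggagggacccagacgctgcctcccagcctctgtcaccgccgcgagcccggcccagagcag
RTP1 promoter: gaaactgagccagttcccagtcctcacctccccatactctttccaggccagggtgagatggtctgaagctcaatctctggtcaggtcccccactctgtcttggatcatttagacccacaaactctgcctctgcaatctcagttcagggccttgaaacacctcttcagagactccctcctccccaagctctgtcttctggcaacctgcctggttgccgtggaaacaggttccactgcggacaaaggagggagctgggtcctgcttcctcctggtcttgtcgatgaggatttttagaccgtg
STOML3 promoter: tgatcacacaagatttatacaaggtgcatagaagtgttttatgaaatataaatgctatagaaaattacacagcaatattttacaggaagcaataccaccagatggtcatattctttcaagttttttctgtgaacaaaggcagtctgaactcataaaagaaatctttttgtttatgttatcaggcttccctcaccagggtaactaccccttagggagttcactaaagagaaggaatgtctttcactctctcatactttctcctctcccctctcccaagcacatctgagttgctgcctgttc
The GNG8 promoter holds 2 overlapping matches of the core, and those of RTP1 and STOML3 hold none. Over both strands, the core was in 5 of the 15 promoters and in 19.1% of the 35116 promoters of the table. The full palindrome of the EBF site, the core with a T before it and an A after it, was in 0 of 15 against 1.21% of all promoters. The homeodomain motif TAATTA was in 0 of 15 against 4.84%. GC content was 68.7% for GNG8, 54.7% for RTP1 and 38.0% for STOML3, beside a median of 58.7% over all promoters. A match is a description of letters and not a site.

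GNG8 was counted in every library, with 51696 UMIs in all. It lies at chr19:46633953-46636541 on the minus strand (GENCODE 44, GRCh38), with 3 exons in its main transcript. Its level was 0.632 CPM at D0 (0.466 to 0.838), 7.25 in D5_dSMADi, 9.38 in D5_XAV939, 0.546 in D10_dSMADi and 4.91 in D10_XAV939. It was 158 CPM at D22 (156 to 160), 369.7 at D24 (365 to 374) and 34.4 at D26 (33.2 to 35.5). The highest level was thus at D24, and the 3 late libraries lay above all early ones with no overlap of their intervals. At least 1 UMI of GNG8 was found in 5370 of 9523 cells at D22 (56.4%), 6514 of 9107 at D24 (71.5%) and 2279 of 11056 at D26 (20.6%).

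RTP1, the receptor chaperone, lies at chr3:187197486-187201462 on the plus strand. It stood at 0.487 CPM at D0, at 0 UMIs in D5_dSMADi, at 0.0346 CPM in D5_XAV939, 0.114 in D10_dSMADi and 0.0517 in D10_XAV939. From there the late libraries gave 1.13 CPM at D22 (0.959 to 1.33), 6.56 at D24 (5.97 to 7.18) and 15.8 at D26 (15.1 to 16.6). Its order over the late days was therefore D22, D24, D26 from low to high, with intervals apart, while GNG8 peaked at D24. RTP1 was found in 137 cells at D22, in 436 at D24 and in 1420 of 11056 at D26 (12.8%).

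GNAL, the alpha subunit, lies at chr18:11689264-11885685 on the plus strand and overlaps CHMP1B on the same strand. It was highest in undifferentiated cells, at 23.97 CPM (22.9 to 25.1) and in 781 of 1009 cells (77.4%), where the cells were also the deepest. It stood at 8.60 CPM in D5_dSMADi, 9.69 in D5_XAV939, 10.6 in D10_dSMADi and 11.95 in D10_XAV939. The late levels were 3.29 CPM at D22 (2.98 to 3.62), 5.77 at D24 (5.22 to 6.36) and 19.3 at D26 (18.5 to 20.2). The level at D26 was thus the closest to that of D0, with intervals apart.

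ADCY3 lies at chr2:24819169-24920237 on the minus strand. It was at 6.78 CPM at D0, 3.85 in D5_dSMADi, 5.56 in D5_XAV939, 5.40 in D10_dSMADi and 6.61 in D10_XAV939. It was lower in every late library, at 1.40 CPM at D22 (1.20 to 1.61), 1.34 at D24 (1.08 to 1.64) and 2.23 at D26 (1.95 to 2.55). The intervals of D22 and D24 overlapped.

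The other 6 genes had few UMIs or none. ANO2 (chr12:5531869-5946232, minus strand) was at 0.935 CPM at D0, 0.178 to 0.288 CPM in the 4 libraries of D5 and D10, 1.26 CPM at D22 (1.08 to 1.47), and 0.0855 and 0.101 CPM at D24 and D26. GNG13 (chr16:798041-800734, minus strand, inside CHTF18 on the other strand) ran from 0.0527 CPM at D0 to 0.527 CPM at D24, with 0.188, 0.219, 0.152 and 0.155 CPM in D5_dSMADi, D5_XAV939, D10_dSMADi and D10_XAV939, 0.0920 at D22 and 0.463 at D26. STOML3 (chr13:38965925-38990859, minus strand) was at 0.0527 CPM at D0, 0.0753 in D5_dSMADi, 0.484 in D5_XAV939, 0.0889 in D10_dSMADi and 3.50 in D10_XAV939, and at 0.0843, 0.0570 and 0.0402 CPM from D22 to D26. The channel subunit CNGA4 (chr11:6234765-6244479, plus strand) had 5 UMIs in all, 3 of them at D26 and 1 each in D5_XAV939 and D22. CNGA2 (chrX:151734746-151745564, plus strand), the main subunit of the channel, had 1 UMI, at D0. OMP (chr11:77102840-77103331, plus strand) had 0 UMIs in every library. Over the 679215711 UMIs of the 8 libraries, a count of 0 allows up to 0.00442 CPM. The OMP gene is a single exon of 492 bases that lies inside the span of CAPN5 on the same strand. Its GENCODE model holds 0 bases of 3' untranslated region. The counts come from 3' ends of transcripts, and ends outside the model would not be counted as OMP. The limit therefore covers counted UMIs and not OMP transcripts.

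**Figure D1:**
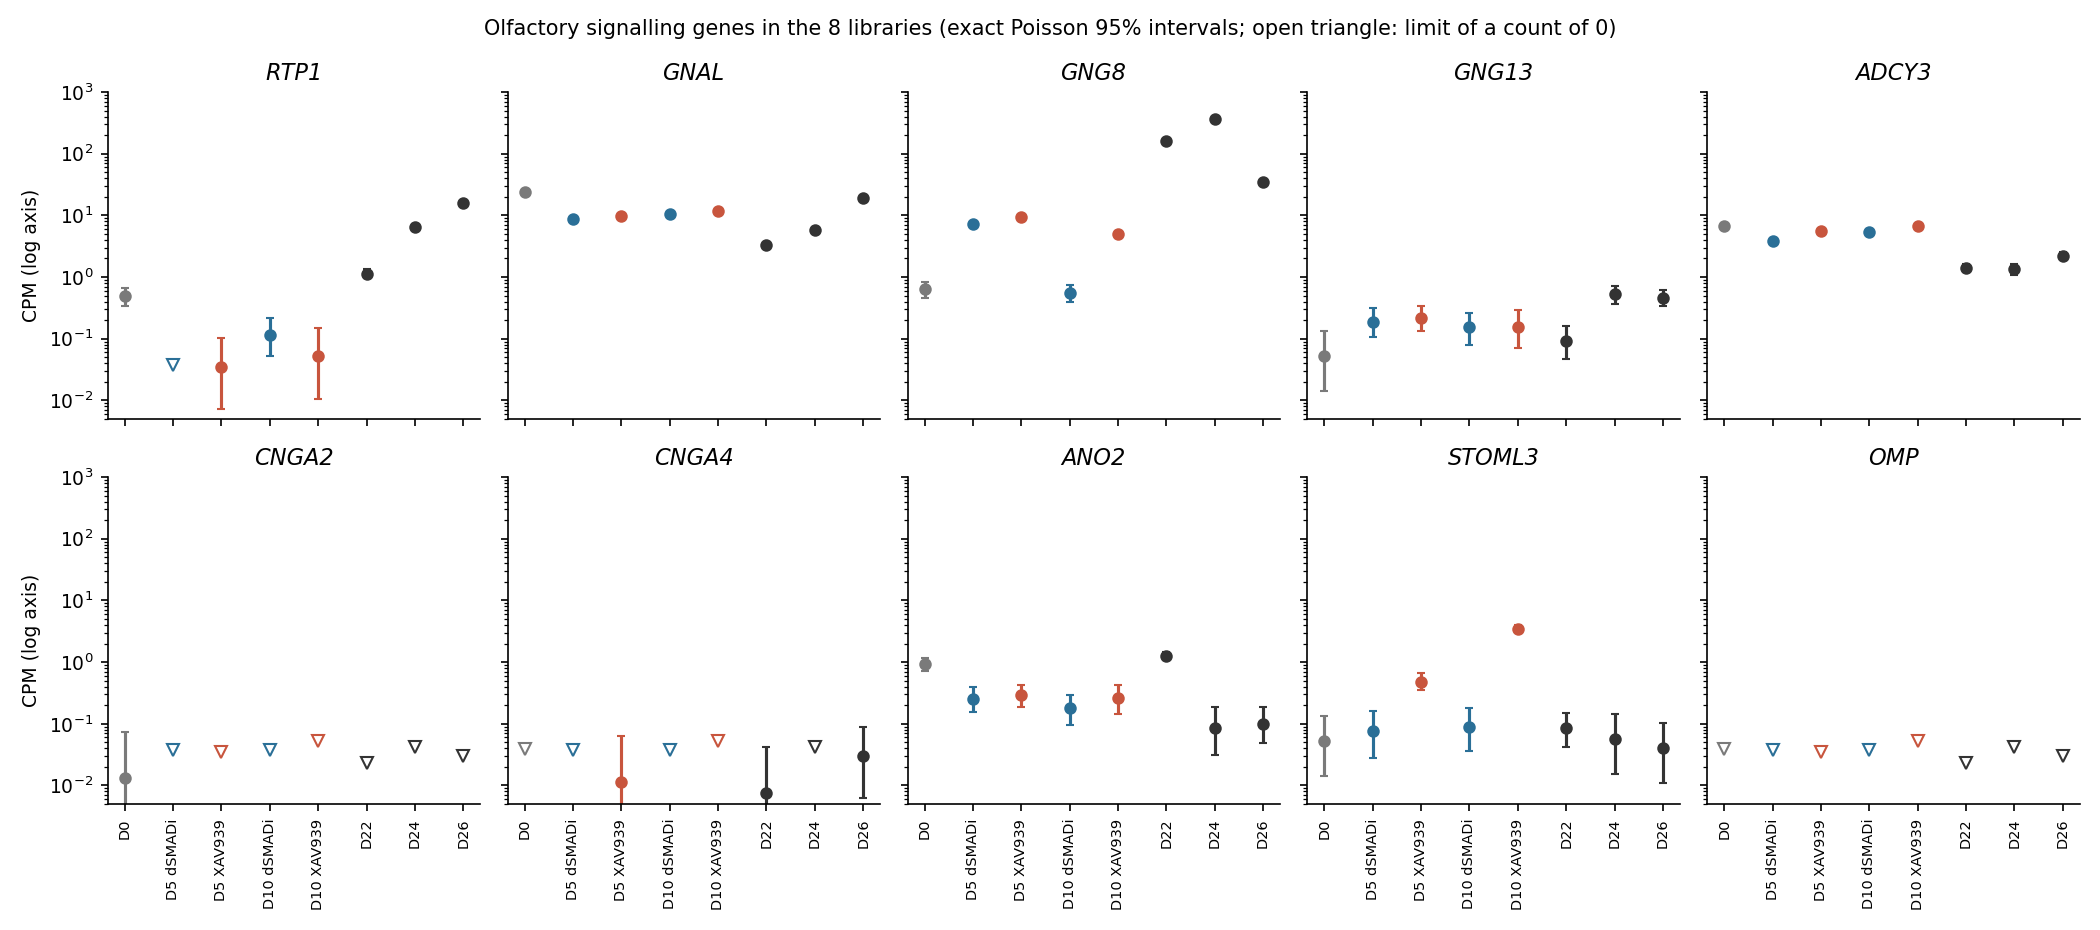
Level of each of the 10 genes in the 8 libraries, in CPM on a log axis, with exact Poisson 95% intervals. Points are 1 library each (grey D0, blue dSMADi, red XAV939, black D22 to D26), and an open triangle is the limit for a count of 0. GNG8 peaks at D24 with 369.7 CPM, RTP1 climbs to 15.8 CPM at D26, STOML3 stands out in D10_XAV939 with 3.50 CPM, and OMP shows only triangles.

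Cells with at least 3 UMIs of TBR1 and PPP1R17 together (TBR1/PPP1R17 cells) numbered 784 of 9523 at D22, 5391 of 9107 at D24 and 7751 of 11056 at D26. TBR1 and PPP1R17 mark the glutamatergic neurons of these cultures. The median depth of these cells and of the others was 11763.5 and 12242 UMIs at D22, 7506 and 6702 at D24, and 8726 and 7767 at D26. Of the 10 genes, 5 had at least 20 UMIs over both groups and were compared at each day, GNG8, GNAL, ADCY3 and RTP1 at all of them, ANO2 at D22 and GNG13 at D24 and D26.

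At D22, 3 of the 5 compared genes (GNG8, GNAL and RTP1) were at least 2-fold higher in TBR1/PPP1R17 cells and 0 were at least 2-fold lower, beside 13.4% and 13.0% of the 17159 genes compared. Their median log2 ratio was 1.12, beside 0.09 for all genes. RTP1 stood at 5.46 against 0.758 CPM (log2 ratio 2.85, 2.35 to 3.34). GNG8 stood at 363 against 139.9 CPM (log2 ratio 1.38, 1.33 to 1.43). GNAL stood at 6.52 against 3.01 CPM (1.12, 0.72 to 1.49), and ADCY3 at 2.49 against 1.30 CPM (0.94, 0.28 to 1.54). ANO2 went the other way, at 0.767 against 1.31 CPM, with an interval of the log2 ratio from -2.01 to 0.24.

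At D22 the other cells were also less neuronal. STMN2 was at 7106 CPM in TBR1/PPP1R17 cells and 789 CPM in the others, and 99.9% of the former but 51.6% of the latter held at least 3 UMIs of it. Against only the 4507 other cells with at least 3 STMN2 UMIs, a choice made after seeing the data, the log2 ratio was 0.73 for GNG8, 1.32 for GNAL, 1.25 for ADCY3 and 2.42 for RTP1. With ADCY3 now in place of GNG8, 3 genes were then at least 2-fold higher, beside 11.8% of the genes compared. The limit sets only a minimum of STMN2 and does not match its level between the groups. These are therefore not ratios among equally neuronal cells.

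At D24, none of the 5 compared genes was at least 2-fold higher or lower, beside 1.46% and 3.46% of 15520 genes, and their median log2 ratio was 0.18, beside 0.07. GNG8 stood at 382 against 349 CPM (log2 ratio 0.13, 0.09 to 0.16) and RTP1 at 7.28 against 5.32 CPM (0.45, 0.16 to 0.75). The GNG8 ratio depended on the gate, at 0.94 (0.87 to 1.00) against cells without any UMI of TBR1 or PPP1R17, and with the other sign at -0.08 for a gate of 5 UMIs and -0.10 for PPP1R17 alone. GNAL stood at 5.41 against 6.40 CPM, ADCY3 at 1.40 against 1.23 CPM and GNG13 at 0.611 against 0.386 CPM, and the intervals of these 3 log2 ratios included 0.

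At D26 no gene was at least 2-fold higher and 1, GNAL, was at least 2-fold lower, beside 3.87% and 4.37% of 16470 genes. GNAL stood at 15.3 CPM in TBR1/PPP1R17 cells and 31.1 CPM in the others (log2 ratio -1.02, -1.15 to -0.89). The other cells include those with at least 3 UMIs of DLX1, DLX2 and DLX5, and without them, a choice made after seeing the data, the log2 ratio was -0.15 (-0.35 to 0.06). It also fell short of 2-fold under other gates, at -0.71 with at least 5 UMIs, -0.68 on PPP1R17 alone and -0.70 on thinned counts, and at -0.99 without the filter on cells. GNG8 was at 38.2 against 23.1 CPM (0.73, 0.60 to 0.86). RTP1 was at 16.3 against 14.5 CPM, ADCY3 at 2.13 against 2.53 and GNG13 at 0.445 against 0.513, each with an interval that included 0. The median log2 ratio of the 5 was -0.20, beside 0.05 for all genes. In each day OMP and CNGA2 had 0 UMIs in both groups, CNGA4 had at most 3 UMIs in a group and STOML3 at most 11.

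Other cell groups, gated on genes outside the list, placed GNAL and GNG8 apart. Cells with at least 3 UMIs of DLX1, DLX2 and DLX5 outside the TBR1/PPP1R17 gate, genes that mark the GnRH and GABA neurons of these cultures, had the highest GNAL at D24 and D26. There GNAL was at 18.1 CPM (13.4 to 23.8) in 326 cells at D24 and 49.0 CPM (45.0 to 53.3) in 1227 cells at D26. At D22 the 748 DLX cells had 6.11 CPM, close to the 6.52 CPM of TBR1/PPP1R17 cells. GNG8 was lower in DLX cells than in TBR1/PPP1R17 cells at each day, at 118, 78.0 and 17.5 CPM.

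Cycling cells, with at least 3 UMIs of MKI67 and TOP2A outside the other gates, had the lowest GNG8 at D22, at 44.4 CPM (42.3 to 46.6) in 2120 cells, and the lowest RTP1, at 0.301 CPM (0.150 to 0.539). They held 54 of the 165 ANO2 UMIs of D22, at 1.48 CPM. The 41 cells with at least 3 UMIs of CCNO, a regulator of multiciliated cells, gave 153 CPM of GNG8 (123 to 189) and 2 UMIs of RTP1. The cells of no gate were at 191, 389 and 27.5 CPM of GNG8 from D22 to D26, so at D24 they reached the level of TBR1/PPP1R17 cells. RTP1 in cells of no gate was at 0.943 CPM at D22, 5.55 at D24 and 12.7 at D26, and in DLX cells at 0.926, 4.33 and 16.9 CPM. At D26 the RTP1 intervals of TBR1/PPP1R17 and DLX cells overlapped.

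**Figure D2:**
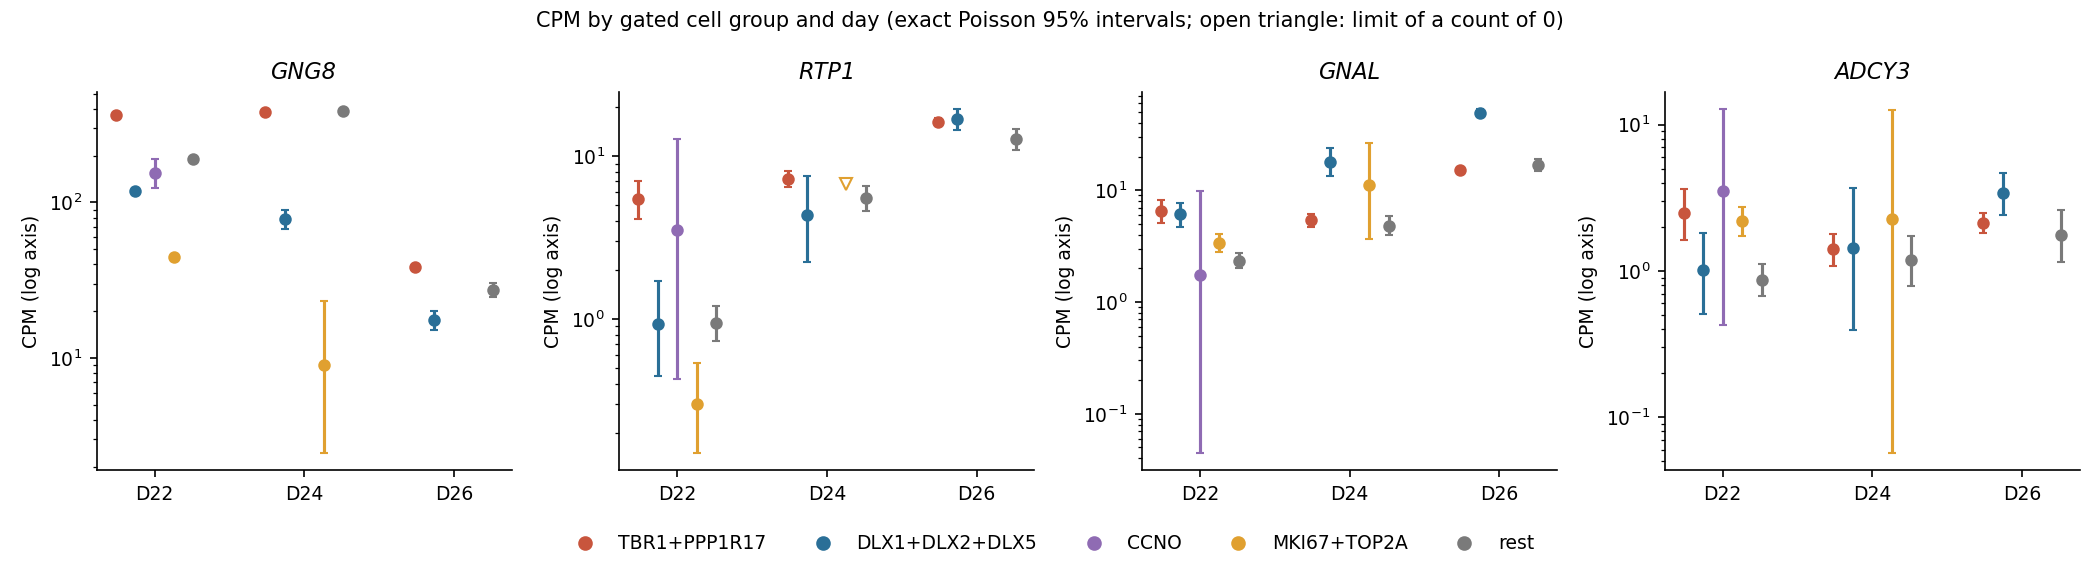
CPM of GNG8, RTP1, GNAL and ADCY3 in gated cell groups of D22, D24 and D26, on log axes that differ between panels. Points are the summed UMIs of a group in 1 library with exact Poisson 95% intervals, groups under 20 cells are left out, and the open triangle is the limit for a count of 0. GNAL is highest in DLX1+DLX2+DLX5 cells at D26 with 49.0 CPM, and RTP1 lies between 12.7 and 16.9 CPM in every group of D26.

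The levels were also followed along the UMIs of TBR1 and PPP1R17 in a cell. GNG8 at D22 was at 126 CPM in cells with 0 such UMIs, 254 with 1, 351 with 2, 374 with 3, 417 with 4 to 5, 351 with 6 to 10 and 307 with over 10. At D24 it was at 199 CPM with 0, reached 457 with 2 and was at 327 with over 10. GNG8 therefore peaked at intermediate counts of the gate genes on these days, whereas at D26 it lay between 18.4 CPM with 0 and 40.2 with over 10. RTP1 at D22 was at 0.749 CPM with 0 gate UMIs and 10.2 CPM with over 10, at D24 at 4.39 and 9.16 CPM, and at D26 at 14.8 and 17.2 CPM. GNAL differed by day, at 2.82 CPM with 0 gate UMIs and 9.34 with over 10 at D22, at 8.67 with 0, 3.04 with 3 and 8.00 with over 10 at D24, and at 39.3 with 0 and 15.5 with over 10 at D26. Cells with over 10 gate UMIs were deeper than those with 0 at D24, at a median of 8776 against 6759.5 UMIs, and at D26, at 10478.5 against 8411.

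**Figure D3:**
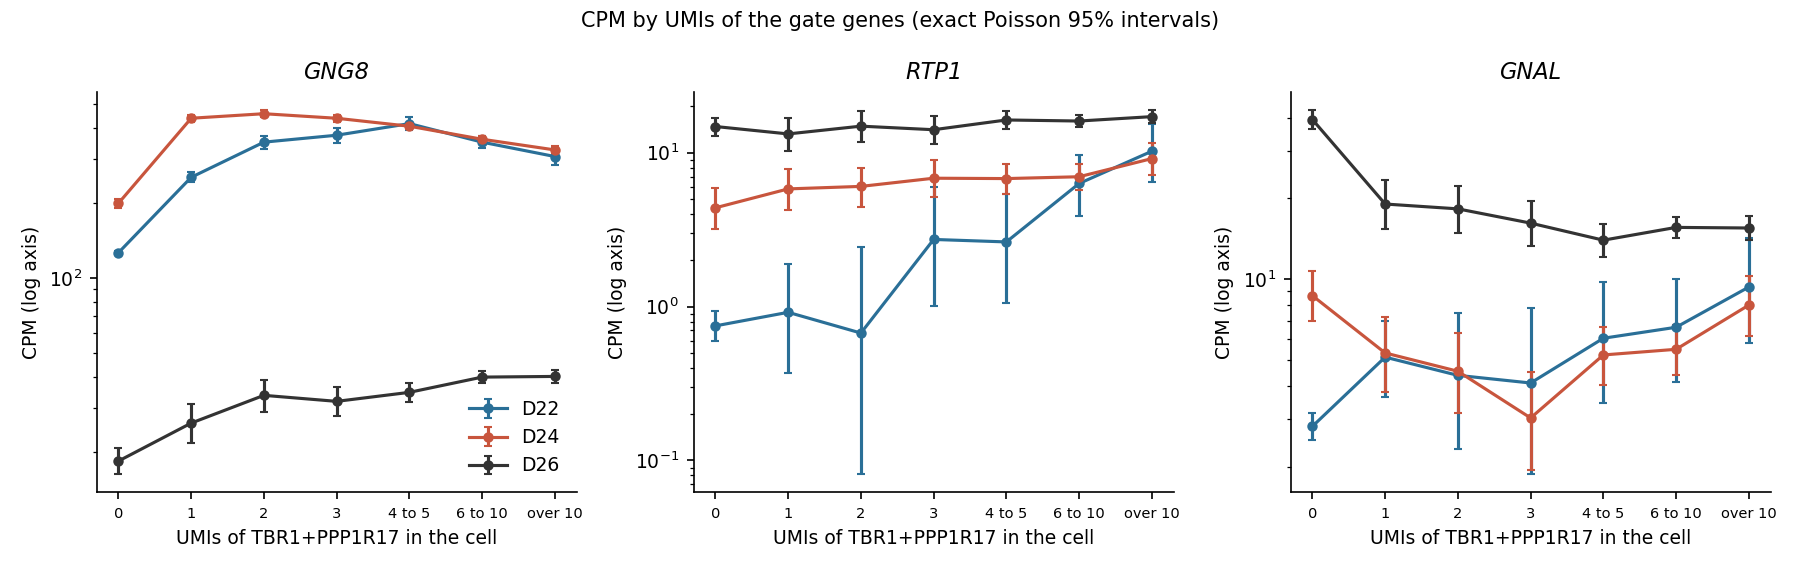
CPM of GNG8, RTP1 and GNAL by the number of TBR1 and PPP1R17 UMIs in the cell, on log axes that differ between panels, for D22 (blue), D24 (red) and D26 (black). Points are summed UMIs of 1 library with exact Poisson 95% intervals. GNG8 is highest at intermediate counts at D22 and D24, and GNAL at D26 is highest, at 39.3 CPM, in cells with 0.

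Within TBR1/PPP1R17 cells, D24 was compared with D22 and D26 with D24. From D22 to D24, 0 of the 5 compared genes were at least 2-fold higher or lower, beside 3.62% and 8.66% of all genes compared. From D24 to D26, GNAL and RTP1 were at least 2-fold higher, beside 10.2%, and GNG8 at least 2-fold lower, beside 5.21%. GNG8 was at 382 CPM at D24 and 38.2 at D26 (log2 ratio -3.32, -3.38 to -3.26). RTP1 was at 7.28 and 16.3 CPM (1.16, 0.98 to 1.34), and GNAL at 5.41 and 15.3 CPM (1.50, 1.30 to 1.71). Among the other gamma subunits in these cells, GNG5 was at 263 CPM at D24 and 16.2 at D26 (log2 ratio -4.02), GNG3, the neuronal form, at 751 and 567 (-0.40), GNG4 at 192 and 203 (0.08) and GNG2 at 84.6 and 142 (0.74).

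Co-detection in the same cell was counted after every cell was thinned to 3000 UMIs, since a deeper cell shows more genes. This left out 3 TBR1/PPP1R17 and 46 other cells at D22, 27 and 91 at D24, and 62 and 207 at D26. UMIs of at least 2 of the 10 genes were found in 23 of 781 TBR1/PPP1R17 cells at D22 (2.94%, 1.88 to 4.39), 134 of 5364 at D24 (2.50%, 2.10 to 2.95) and 87 of 7689 at D26 (1.13%, 0.907 to 1.39). In other cells the shares were 0.357% of 8693 (0.242 to 0.506), 1.71% of 3625 (1.31 to 2.19) and 0.968% of 3098 (0.654 to 1.38). At this depth the intervals were apart at D22 and overlapped at D24 and D26. At 1500 UMIs per cell they overlapped at D22 too, at 0.510% (0.139 to 1.30) against 0.149% (0.0792 to 0.254). At least 3 of the genes were found in 3, 1 and 2 TBR1/PPP1R17 cells and in 0, 0 and 1 other cells, and no cell of either group held 4.

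A UMI in a droplet can also come from free RNA, so these are shares of cells with UMIs and not of cells that express the genes. For comparison, cycling cells of D22 gave 4 of 2101 with at least 2 of the genes (0.190%, 0.0519 to 0.487). Their median was 15515.5 UMIs before thinning, against 11763.5 in TBR1/PPP1R17 cells. They held GNG8 at 44.4 CPM and ADCY3 at 2.19 CPM, against 363 and 2.49 CPM in TBR1/PPP1R17 cells. Whether cycling cells express these genes was not tested, so their share is not a measure of free RNA alone. At D24 they gave 0 of 41, which allows up to 7.32%, and at D26 the cycling group was under 20 cells. No useful comparison was therefore had for these days. Genes of the GnRH-GABA list were counted in TBR1/PPP1R17 cells too, with GNRH1, the GnRH precursor, at 770 against 10590.4 CPM at D26. All 7 lay between -3.91 and -3.69 on the log2 scale against other cells at that day. At D26, 220 TBR1/PPP1R17 cells also held at least 3 UMIs of DLX1, DLX2 and DLX5. Of these, 78.6% were among the cells with the highest doublet score, against 8.71% of all TBR1/PPP1R17 cells. The part of free RNA or of doublets in these counts and in the olfactory genes was not tested, and the shares of D22, D24 and D26 are not read as expression.

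Most of this co-detection involved GNG8. A UMI of at least 1 of the 10 genes was in 59.0%, 58.9% and 18.8% of thinned TBR1/PPP1R17 cells. GNG8, with or without the other genes, was in 57.4%, 56.9% and 10.1%. For comparison, GNG8 was in 10.5% of thinned cycling cells at D22, the group with the lowest GNG8 level of that day. Without GNG8, at least 2 of the remaining 9 genes were found in 0.384%, 0.0746% and 0.325% of TBR1/PPP1R17 cells. The corresponding shares of other cells were 0.0115% at D22, 0 of 3625 at D24, which allows up to 0.0828%, and 0.387% at D26. DLX cells, a part of the others, gave 0 of 746 at D22, 0 of 325 at D24 and 0.741% at D26 (0.340 to 1.40). The counts of 0 allow up to 0.402% and 0.923%. RTP1 was detected in 1.79%, 2.22% and 4.88% of thinned TBR1/PPP1R17 cells and in 0.207%, 1.63% and 4.13% of the others. GNAL was detected in 1.92%, 1.57% and 4.07% against 0.725%, 1.71% and 8.04%.

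Detection of RTP1 was compared between thinned TBR1/PPP1R17 cells with and without GNG8. At D22 it was in 9 of 448 cells with GNG8 (2.01%, 0.923 to 3.78) and 5 of 333 without (1.50%, 0.489 to 3.47). At D24 it was in 65 of 3053 (2.13%, 1.65 to 2.71) and 54 of 2311 (2.34%, 1.76 to 3.04), and at D26 in 31 of 777 (3.99%, 2.73 to 5.62) and 344 of 6912 (4.98%, 4.48 to 5.52). The intervals overlapped at each day, and a difference was not tested. In the full counts RTP1 was in 5.60% of cells with GNG8 (4.01 to 7.58) and 12.5% without (6.41 to 21.3) at D22, 5.47% (4.80 to 6.203) and 6.14% (4.85 to 7.65) at D24, and 16.4% (14.7 to 18.1) and 13.3% (12.4 to 14.2) at D26. The order thus turned between days, with intervals apart only at D26, where the thinned counts gave the other order. Full counts are not matched for depth, and a deeper cell shows more genes. Also in the full counts, at least 2 of the 10 genes were in 13.9%, 8.81% and 8.77% of TBR1/PPP1R17 cells and 4.23%, 5.54% and 6.38% of the others. The intervals were apart at each day, among them 8.07 to 9.60 against 4.83 to 6.33 at D24 and 8.15 to 9.42 against 5.57 to 7.27 at D26. DLX cells, a part of the others, gave 6.42%, 7.06% and 11.1%, the last (9.38 to 13.0) above the share of TBR1/PPP1R17 cells with overlapping intervals. Without GNG8 the shares were 1.66%, 0.427% and 2.88% of TBR1/PPP1R17 cells and 0.423%, 0.296% and 3.00% of the others. Against the pooled others those intervals were apart only at D22. Among the others of D26, DLX cells gave 6.11% (4.84 to 7.60) and cells of no gate 1.16% (0.742 to 1.72). Both intervals were apart from that of TBR1/PPP1R17 cells (2.52 to 3.27), on either side of it. DLX cells gave 0.802% at D22 and 0.307% at D24. Even in the full counts the most genes in a cell were 4, in 3 TBR1/PPP1R17 cells of D26, each with GNG8, GNAL, ADCY3 and RTP1, and in 1 other cell of D22.

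**Figure D4:**
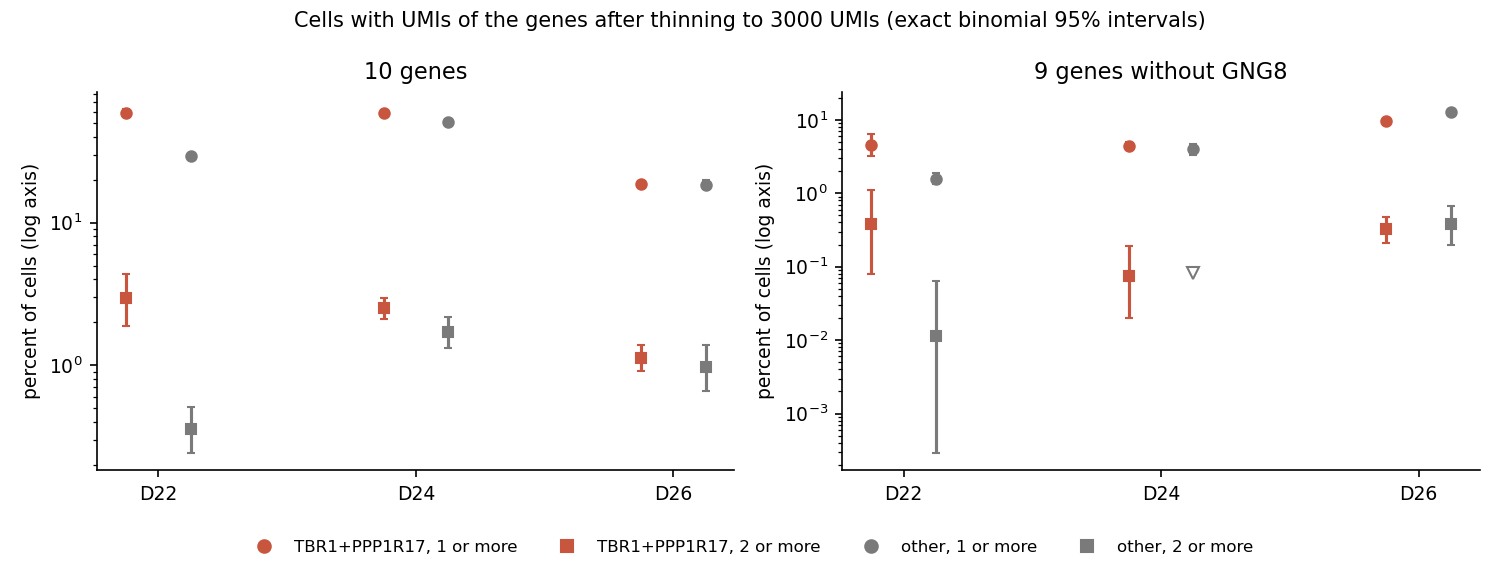
Share of cells with UMIs of 1 or more (circles) or 2 or more (squares) of the genes, after thinning to 3000 UMIs per cell, on log axes that differ between panels, with exact binomial 95% intervals. TBR1/PPP1R17 cells are red and other cells grey, and the open triangle is the limit for a count of 0. With GNG8 counted, 59.0% of TBR1/PPP1R17 cells at D22 hold 1 or more, and 2 or more is at most 2.94% in any group shown.

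Olfactory receptor genes, which each mature olfactory neuron expresses at high level from a single gene, were sparse. Of the 385 such genes in the late feature table, 105, 84 and 100 had a UMI at D22, D24 and D26. Their summed level was 11.6 against 9.01 CPM in TBR1/PPP1R17 and other cells at D22, 13.4 against 10.4 at D24 and 15.5 against 12.9 at D26. The log2 ratios were 0.36 (0.08 to 0.64), 0.37 (0.16 to 0.58) and 0.27 (0.09 to 0.45), so the sum was slightly higher in TBR1/PPP1R17 cells at each day. No cell of D22 to D26 held more than 2 UMIs of any olfactory receptor gene. OR7D2 and OR2L2 had the most UMIs at each day, with OR2L2 at 2.55 against 1.97 CPM at D26. The sum over the receptor genes that early and late files share was 6.39 CPM at D0, 5.81 to 6.90 CPM at D5 and D10, and 9.21, 12.3 and 14.8 CPM from D22 to D26. The most UMIs of 1 receptor gene in 1 cell of the early libraries were 12 at D0, 2 in D5_dSMADi and D10_XAV939, 3 in D5_XAV939 and 5 in D10_dSMADi. The TAAR genes, a smaller family of nasal receptors, had 0 UMIs at D22, D24 and D26.

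Of the 13 listed partners of the cascade, 11 were compared at each day, and 5, 0 and 0 of them were at least 2-fold higher in TBR1/PPP1R17 cells, with 0 lower, beside 13.4%, 1.46% and 3.87% of all genes higher. The median log2 ratios were 0.99, 0.13 and 0.06, beside 0.09, 0.07 and 0.05 for all genes. Among those higher at D22 were CNGB1, REEP1 and, named after their values were seen, the phosphodiesterases PDE1C and PDE4A. CNGB1, the channel subunit that joins CNGA2 and CNGA4 in the nose, was at 29.2 against 1.00 CPM at D22, 28.0 against 19.7 at D24 and 30.8 against 18.9 at D26. CNGA3, known from cone photoreceptors, was at 10.4 against 2.03, 8.10 against 6.17 and 3.74 against 2.21 CPM. Thus the modulatory subunit was counted while CNGA2 was not. REEP1 was at 15.4 against 2.27, 29.2 against 23.4 and 70.9 against 56.6 CPM, and RTP2 had 0 UMIs. GNAS, the alpha subunit closest to that of GNAL, was at 2445, 2388 and 2896 CPM in TBR1/PPP1R17 cells.

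The counts of the lists that follow stand beside 13.4%, 1.46% and 3.87% of all genes at least 2-fold higher and 13.0%, 3.46% and 4.37% lower at D22, D24 and D26, and with so few genes in a list they are descriptions only. In the families of the members, the CNG channel list had 3 compared genes, of which 3 (CNGB1, CNGA3 and CNGB3), 0 and 1 (CNGB3) were at least 2-fold higher from D22 to D26 and 0 lower. The gamma subunit list had 9, 10 and 10 compared genes, of which GNG3 and GNG8 were higher at D22, GNG11 was lower at each day and GNG5 was lower at D26. The adenylate cyclase list had 8, 7 and 7 compared genes, of which 4, 0 and 1 were higher and 2, 0 and 0 lower. Those higher at D22 were ADCY1, ADCY2, ADCY5 and ADCY9, and those lower ADCY7 and ADCY8, at up to 51 UMIs in a group. ADCY2, the cyclase higher at D26, was at 47.8, 77.2 and 43.6 CPM in TBR1/PPP1R17 cells and at 2.95, 50.3 and 15.0 CPM in the others.

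Other genes known from olfactory neurons gave a mixed pattern. All 10 genes of immature olfactory neurons were compared, of which 3, 0 and 1 were at least 2-fold higher in TBR1/PPP1R17 cells and 1, 2 and 2 lower, beside 13.4%, 1.46% and 3.87% of all genes higher and 13.0%, 3.46% and 4.37% lower. The median log2 ratios were 0.77, 0.07 and 0.06. LHX2, EBF1 and GAP43 were higher at D22 and EMX2 at D26, EBF2 was lower at each day, and NHLH1 was lower at D24 and D26. GAP43, a growth cone protein of many immature neurons, was at 1114 against 61.3 CPM at D22 and 2199 against 1777 CPM at D26. EMX2, a homeodomain factor, was at 461, 669 and 502 CPM against 285, 465 and 195. Of the other markers of mature olfactory neurons, 4, 5 and 4 of 6 were compared, with SLC17A6 and NCAM2 higher and KIRREL2 lower at D22 and none past 2-fold later. SLC17A6, the vesicular glutamate transporter found in many neurons, was at 93.0, 71.3 and 65.2 CPM against 3.12, 61.4 and 43.1, while S100A5 had 1 UMI in all. Of 7 lineage factors, 5 were compared, with 0 higher, and NEUROG1, a proneural factor, was lower at D22 and D26. The 4 genes of other cells of the olfactory epithelium gave 2 UMIs, both of ERMN at D22.

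Markers of other cell types moved with the same gate. Of the 5 Cajal-Retzius genes, 5, 1 and 4 were at least 2-fold higher in TBR1/PPP1R17 cells and 0, 1 and 1 lower, again beside 13.4%, 1.46% and 3.87% of all genes higher. The gene higher at D24 was RELN, and the gene lower at D24 and D26 was TP73. Their summed level was 340.3 against 51.4 CPM at D22, 453 against 269.98 at D24 and 591 against 233 at D26. RELN, the extracellular protein made by Cajal-Retzius cells, was at 229 against 108 CPM at D26. Of the 7 GnRH-GABA genes, 0 were higher and 6, 7 and 7 lower, with DLX6-AS1 the exception at D22, and their summed level was 22.3 against 98.8, 223 against 2915 and 822 against 11326 CPM. The 6 habenula genes gave 4, 5 and 4 compared, with TAC1 higher and CHRNB4 and NR4A2 lower at D22 and all compared genes lower at D24 and D26. The 7 multiciliated genes gave 6, 4 and 4 compared, with CDC20B higher at D22 and 0 lower. The 3 progenitor genes were lower at each day, at a sum of 116 against 822 CPM at D22. The 3 neuron genes were higher at D22, at 8153 against 1165 CPM, and not past 2-fold later. Of the 2 pluripotency genes POU5F1 was higher at D22, with 4 against 23 UMIs. The part of these markers in the levels of the olfactory genes was not tested.

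Genes with the pattern most like that of 2 members were found over the 12 cell groups of D22 to D26, by Pearson correlation of log2(CPM + 10) among 4373 genes, as a description of groups that share libraries and depth. For GNG8 they were AC023300.2 (r = 0.962), NDUFS5 (0.957), CNTN2 (0.953), TRH (0.9499) and SDCBP (0.947). For GNAL they were PRKCB (r = 0.964), ZNF503 (0.956), AC007938.3 (0.944), RGS2 (0.935) and DSEL (0.929).

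The last comparison set cells with XAV939 against cells without it in the first 10 days. At D5, 1 of 6 compared genes was at least 2-fold higher with XAV939 and 0 lower, beside 2.64% and 2.60% of all genes compared. This was STOML3, with 42 UMIs in D5_XAV939 and 6 in D5_dSMADi (log2 ratio 2.69, 1.44 to 4.21). GNG8 (log2 ratio 0.37), GNAL (0.17), ADCY3 (0.53), ANO2 (0.20) and GNG13 (0.22) differed less. At D10, 2 of 6 were at least 2-fold higher and 0 lower, beside 3.29% and 6.16%. STOML3 had 203 UMIs in 138 of 2168 cells of D10_XAV939 and 7 UMIs in 7 of 2416 cells of D10_dSMADi, at 3.50 against 0.0889 CPM (log2 ratio 5.30, 4.23 to 6.63). Without the filter on cells the log2 ratio was 4.08 (3.41 to 4.84). GNG8 had 285 against 43 UMIs (log2 ratio 3.17, 2.70 to 3.67), GNAL stood at 0.17, ADCY3 at 0.29 and ANO2 at 0.54.

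The GNG8 difference at D10 sat in few cells. In D10_XAV939, 269 of the 285 GNG8 UMIs were in the 74 cells with at least 10 UMIs of STMN2, a limit set after seeing the data, at 141 CPM (124 to 159), and the other 2094 cells were at 0.285 CPM. In D10_dSMADi, 19 cells passed that limit, at 13.8 CPM of GNG8 (5.07 to 30.1), and the other 2397 were at 0.472 CPM. Without the cells past the limit the log2 ratio of GNG8 was -0.73 (-1.67 to 0.15), the opposite sign. Of the 203 STOML3 UMIs of D10_XAV939, 187 were in the cells under the limit, where it stood at 3.33 CPM (2.87 to 3.84) against 0.0894 CPM in D10_dSMADi. In the 74 cells past the limit its level was higher, at 8.37 CPM (4.79 to 13.6) from 16 UMIs in 6 cells.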

How the data were processed

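Single-cell RNA-seq counts of 8 libraries were analysed, with 1 GEO-labelled sample per late day and 5 tagged conditions of 1 multiplexed sample. The authors aligned reads to GRCh38 and deposited raw UMI counts per gene and barcode, whole numbers with no normalization, made with Cell Ranger 3.1.0 (D22 to D26) and 6.1.2 (tagged conditions) per the file headers. The labels give version 3.1 for all. Cells were kept by the limits of the study's methods on UMIs, genes, mitochondrial share and complexity. For D0 the complexity limit was dropped after seeing that it left 1 cell. Doublets were left in and scored with Scrublet in scanpy 1.11.5 for an alternative without the 6% of cells with the highest score.

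UMIs were summed per group of cells and scaled to CPM, with exact Poisson intervals. Ratios carry the interval of the exact binomial split and shares that of Clopper-Pearson, all at 95% (SciPy 1.17.1, Python 3.11.15). A count of 0 was given the limit of 3 counts. Genes with at least 20 UMIs over both groups were compared, a 2-fold ratio was called, and groups under 20 cells were left out. Thinning drew 3000 UMIs per cell without replacement with seed 7, and the code was tested on simulated data. Gated groups were taken in the order TBR1/PPP1R17, DLX, CCNO, cycling, each from cells outside the earlier gates. Named genes are the 10 members, up to 4 examples per list with the highest CPM in TBR1/PPP1R17 cells of D26, the 3 receptor genes of most UMIs, and the 5 genes most like each member with at least 20 CPM in a group. Other list genes past 2-fold were named after their values were seen. The members and lists were chosen with earlier results of these data known. The tag counts were used only to check the conditions, and 0 columns of per-sample values were left unused. Gene positions are from GENCODE 44, which may not be the release behind the files. Some genes of the lists are not reported here.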

Additional observations from a re-analysis of the deposited data

How the results depend on the processing

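No paired analysis was possible because each condition was 1 library and the labels give no replicate shared between groups, so leaving out a replicate was not possible either. The count of genes at least 2-fold higher in TBR1/PPP1R17 cells was 3 or 4 at D22 under every alternative run, and 0 at D24 and D26 except against other cells without any UMI of TBR1 or PPP1R17, where it was 1 at D24 (GNG13) and 1 at D26 (GNG8). The interval of that GNG13 log2 ratio ran from -0.64 to 3.43 and included 0, while that of GNG8 ran from 0.88 to 1.24. The share of TBR1/PPP1R17 cells with at least 2 of the genes depended on the thinning depth. It was 0.510%, 0.909% and 0.439% at D22, D24 and D26 with 1500 UMIs per cell, 4.88%, 4.92% and 3.07% with 5000, and 13.9%, 8.81% and 8.77% without thinning. Whether its interval was apart from that of other cells depended on depth too, at no day with 1500 UMIs, at D22 with 3000 and 5000, and at every day without thinning. The other cells were pooled for this. DLX cells alone gave 0.670%, 0.923% and 1.57% with 3000 UMIs, and 6.42%, 7.06% and 11.1% without thinning, so at D26 they were above TBR1/PPP1R17 cells. Leaving out GNG8, chosen after seeing the data, gave 0.384%, 0.0746% and 0.325% of TBR1/PPP1R17 cells with 3000 UMIs. The remaining alternatives (cell filter, gate, doublets, choice of other cells) moved these shares to between 2.05% and 3.54% at D22, 2.34% and 2.56% at D24, and 0.962% and 1.25% at D26. Of 201 alternative values of single-gene ratios, 167 stayed within the interval of the reported value, 33 moved outside it, 7 of them to the other sign, and 1 past 2-fold changed sign. That was GNG8 for XAV939 over dSMADi at D10, with a log2 ratio of -0.73 (-1.67 to 0.15) without cells of at least 10 STMN2 UMIs, so the call was lost and the interval includes 0. Of the 53 alternative values of ratios past 2-fold, 7 fell short of it. Besides that one they were GNG8 at D22, at 0.73 against other cells with at least 3 STMN2 UMIs, and GNAL at D26 under 5 alternatives, at -0.15 to -0.99. Another 7 values passed 2-fold where the reported one did not, for ADCY3 and ANO2 at D22, GNG13 at D24 and GNG8 at D26. Without the cell filter the STOML3 ratio at D10 was 4.08 on the log2 scale. Of the TBR1/PPP1R17 cells, 1.15%, 0.556% and 2.84% from D22 to D26 also held 3 UMIs of DLX genes (9, 30 and 220 cells). Of these, 55.6%, 70% and 78.6% were among the cells with the highest doublet score. The shares of all TBR1/PPP1R17 cells were 9.69%, 8.31% and 8.71%. CNGA4 had 5 UMIs and CNGA2 1, too few for a comparison between groups. An interval that treats each UMI as independent understates the error of a gene carried by few cells.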
